A study of Mus musculus with 20 samples.

Results

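The genes described here are 10 genes of the ATF4 and CHOP branch of the integrated stress response: Atf4, Ddit3 (which encodes CHOP), Atf3, Atf5, Trib3, Chac1, Ppp1r15a, Nupr1, Sesn2 and Ddit4. They were taken from a named list, are 10 of the 24421 gene symbols counted, and were all found in the files. RNA was sequenced from mouse motor neurons grown out of embryonic stem cells, as NIL neurons (labelled spinal) and NIP neurons (labelled cranial). In the field, NIL and NIP name the factor sets that program the cells: Neurog2 and Isl1 with Lhx3 for NIL, or with Phox2a for NIP. Each line was sampled at 0 h without treatment, and at 12 h and 36 h either left untreated or kept in 20 µM cyclopiazonic acid (CPA), which gives 10 groups of 2 libraries. All cells were day 2 neurons in the same serum- and B27-containing medium. These times follow the sample titles; the treatment notes give an earlier pair. The labels do not say whether the 2 libraries of a group came from separate cultures, so the p-values reflect only how far these samples spread, and that spread may be technical.

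CPA blocks SERCA, the pump that refills the endoplasmic reticulum with calcium, and low calcium in that compartment leaves proteins misfolded. The kinase PERK (Eif2ak3) then phosphorylates the initiation factor eIF2, which lowers most translation but lets the ribosome reach the coding region of Atf4, and related kinases do the same in amino acid shortage and other stresses. ATF4 is a basic leucine zipper transcription factor that, often with a C/EBP partner and later with CHOP, drives genes for amino acid supply, redox balance, recovery of translation and, when stress lasts, cell death. RNA levels do not show eIF2 phosphorylation or ATF4 protein.

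Lhx3 was at 115.0 to 166 CPM (read counts scaled to a common library size) in every NIL library and at 0 to 0.326 CPM in NIP, so this line marker followed the labels. Gene reads per library ran from 7996454 to 30321152. Rn45s, the ribosomal RNA precursor, took 5.18% to 38.6% of gene reads with a median of 11.6%. The 2 highest libraries in this share were NIP 36 h untreated replicate 1 (38.6%) and NIL 36 h CPA replicate 2 (38.3%), and the counts of genes called at 36 h are given with and without them. Libraries with the same replicate number deviated together across groups, and adjusted p-values with the replicate number as a block are given where they changed a call.

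Because several of these genes moved together, the 250 bases before each gene's start in the RefSeq promoter table (GRCm38.p6) were searched on both strands for TGATGNAA, the composite C/EBP-ATF response element, where N is any base. Starts were found for all 10 genes. The element's letters were present for 3 of them and in 3.45% of all 32851 promoters of the table. The 3 windows are printed 5′ to 3′ on the gene's strand, with the match (its reverse complement, TTGCATCA) in capitals. That of Chac1 is chr2:119350992-119351241 (plus strand), that of Atf3 is chr1:191183334-191183583 (minus strand) and that of Nupr1 is chr7:126625471-126625720 (minus strand).
Chac1: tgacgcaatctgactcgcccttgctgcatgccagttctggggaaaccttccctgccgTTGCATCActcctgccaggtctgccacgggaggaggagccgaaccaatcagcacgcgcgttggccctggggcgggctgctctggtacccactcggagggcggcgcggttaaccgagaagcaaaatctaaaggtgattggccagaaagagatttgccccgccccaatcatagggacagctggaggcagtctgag
Atf3: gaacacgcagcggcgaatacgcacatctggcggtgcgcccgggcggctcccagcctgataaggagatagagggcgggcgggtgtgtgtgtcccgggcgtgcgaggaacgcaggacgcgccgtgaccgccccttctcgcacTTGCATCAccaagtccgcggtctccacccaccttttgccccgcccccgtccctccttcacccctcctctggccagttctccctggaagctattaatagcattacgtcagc
Nupr1: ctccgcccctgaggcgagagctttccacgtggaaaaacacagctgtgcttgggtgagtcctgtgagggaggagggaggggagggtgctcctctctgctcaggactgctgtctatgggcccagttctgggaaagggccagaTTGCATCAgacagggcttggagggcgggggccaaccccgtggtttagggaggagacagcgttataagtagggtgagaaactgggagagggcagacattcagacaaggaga
Counted from the RefSeq start, the match spanned bases -193 to -186 in Chac1 and -110 to -103 in both Atf3 and Nupr1. For Atf3 and Nupr1 this start and window lie inside the gene span given below, which follows the GENCODE annotation. The 3 matched octamers were the same letters although N may be any base. An ER stress element, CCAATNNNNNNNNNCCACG, was found in 37 promoters of the table (0.113%) and before none of the 10 genes. A match describes letters only, and a missing match says only that these letters are not in this window.

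With CPA, 9 of the 10 genes were higher in both treated libraries than in both untreated libraries of the same line and time, at both times and in both lines. The exception was Ddit4, which differed this way in NIP but overlapped between treated and untreated libraries in NIL. By edgeR's quasi-likelihood test with Benjamini-Hochberg adjustment over 14792 genes (threshold 0.05), 8 of 10 rose at 12 h in NIL, where 1.55% of all tested genes rose. In NIL at 36 h 8 of 10 rose, against 0.446% of all genes. In NIP 8 of 10 rose at 12 h, against 2.96% of all genes, and 8 of 10 at 36 h, against 1.33%. All 10 fitted changes were positive in each of these 4 comparisons.

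The median log2 change of the 10 genes was 2.99 in NIL at 12 h, 2.73 in NIL at 36 h, 3.38 in NIP at 12 h and 2.40 in NIP at 36 h. Over all tested genes the medians were -0.03, 0.01, -0.01 and 0.03. With the replicate block the counts were 9 in NIL at 12 h (4.16% of all genes rose), 9 in NIL at 36 h (7.25%), 10 in NIP at 12 h (7.54%) and 10 in NIP at 36 h (5.1%). In bulk RNA a change in the share of a cell type and a change of RNA per cell cannot be told apart.

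Calls at 36 h rested on few libraries. Without both high-Rn45s libraries 0 of 10 were called in either line, where 0% of all genes were called higher in NIL and 0% in NIP, so calls were lost across all genes and not only for these. The medians of the 10 genes were then 2.37 in NIL and 2.26 in NIP, and the values of Ddit3 were then 2.76 in NIL and 3.30 in NIP on the log2 scale. In NIL at 36 h the count was 0 without either untreated library and 1 without CPA replicate 2. In NIP at 36 h it was 0 without untreated replicate 1 and 1 without untreated replicate 2. At 12 h it was 5 in NIL without untreated replicate 1, and 4, 4 and 5 in NIP without untreated replicate 1, CPA replicate 1 and CPA replicate 2. Atf4, Ddit3, Atf3 and Ppp1r15a passed at 12 h in both lines in all 4 fits that each left out 1 library.

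**Figure D1:**
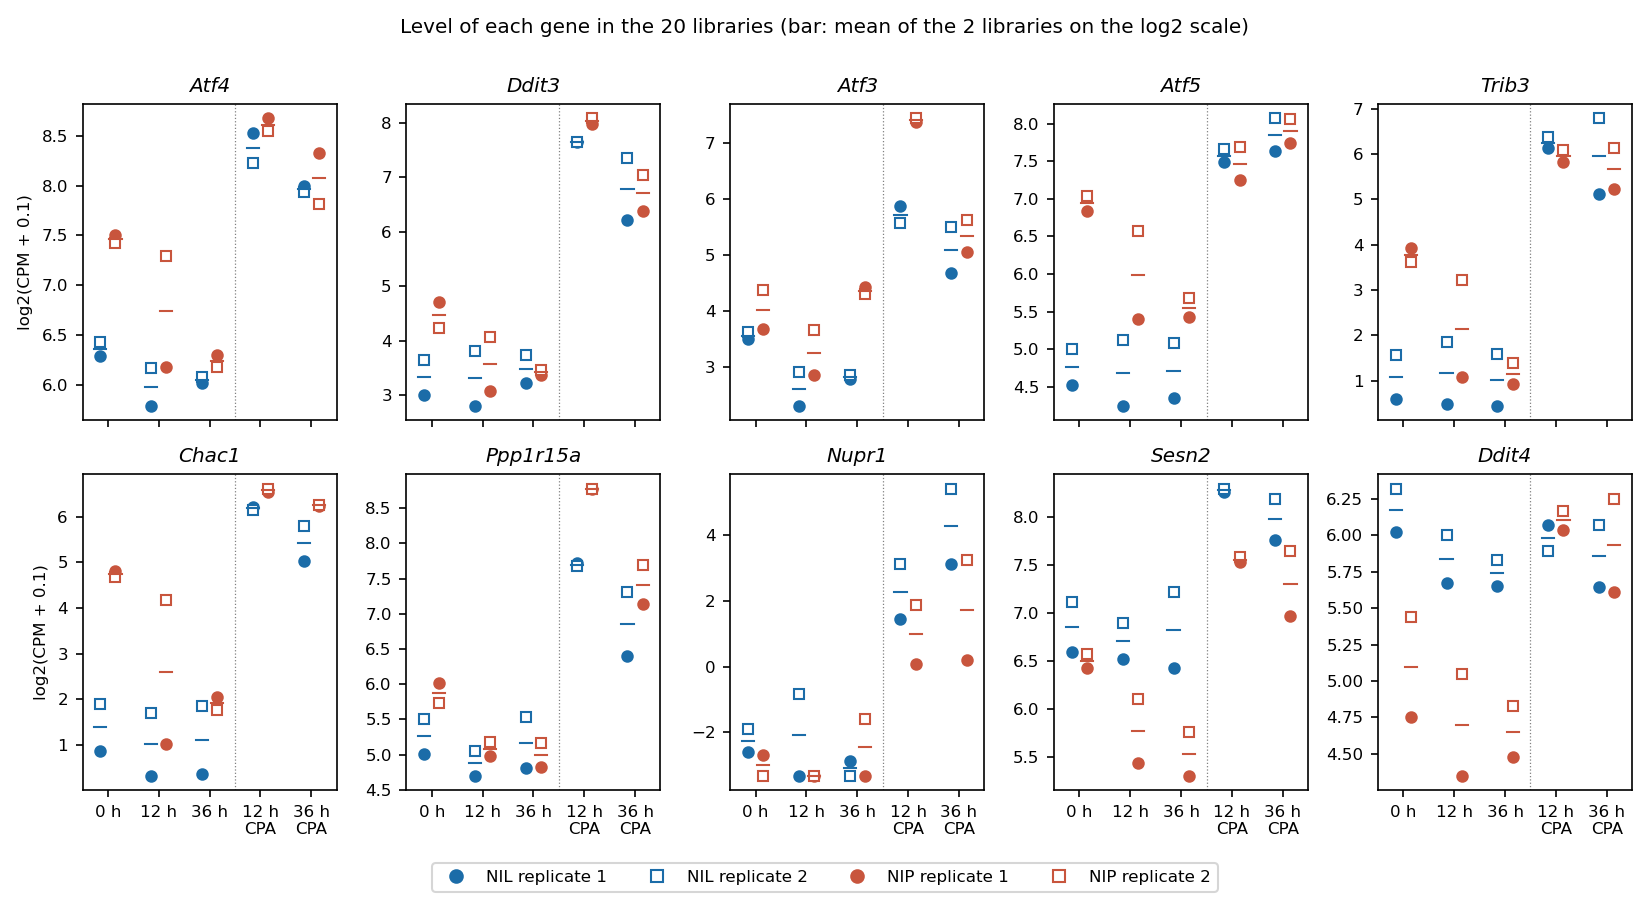
Level of each gene in each of the 20 libraries as log2(CPM + 0.1), by time and treatment, with NIL in blue, NIP in red, replicate 1 filled and replicate 2 open. Bars are means of the 2 libraries on the log2 scale, and the dotted line divides untreated from CPA groups. All genes but Ddit4 are higher with CPA in both lines, and untreated NIP levels of Atf4, Atf5, Trib3 and Chac1 start above NIL at 0 h.

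The transcription factors are described first. Atf4 (chr15:80255184-80257541 on GRCm38, plus strand) encodes the factor that the branch is named for. Of each pair of values, replicate 1 is given first. Atf4 was at 55.2 and 72.0 CPM in untreated NIL at 12 h and at 370.5 and 299.9 CPM with CPA, and at 36 h it was at 64.5 and 67.4 untreated and 255 and 245 with CPA. In NIP libraries Atf4 was at 72.3 and 157 untreated and 409 and 374 CPM with CPA at 12 h, and at 78.5 and 72.5 untreated and 323 and 226 with CPA at 36 h. The treated and untreated libraries stood apart in each case. Their ratio was smallest in NIP at 12 h, where untreated replicate 2 was close to the 0 h libraries. The log2 change ± SE was 2.40 ± 0.30 and 1.92 ± 0.29 in NIL at 12 h and 36 h (adjusted p = 0.000865 and 0.0159). The NIP changes were 1.77 ± 0.29 and 1.86 ± 0.29 (adjusted p = 0.0041 and 0.00506, edgeR).

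Ddit3 (chr10:127290774-127296288, plus strand) encodes CHOP, a C/EBP family factor linked to cell death in lasting stress. Its exons share 68 bases (3.97%) with Mars on the other strand. Its levels at 12 h in NIL were 6.90 and 13.9 CPM untreated and 200.2 and 201 CPM with CPA, a 19.8-fold rise by the fitted means (log2 4.31 ± 0.49, edgeR adjusted p = 0.000554). In NIP at 12 h they were 8.31 and 16.7 CPM untreated and 252 and 271 CPM with CPA (log2 4.39 ± 0.48, adjusted p = 0.000273). The treated libraries of a line agreed closely at 12 h and spread at 36 h. At 36 h with CPA they were 73.8 and 163 CPM in NIL and 83.2 and 133 CPM in NIP, with replicate 2 higher in both lines. The untreated 36 h levels were 9.26 and 13.1 in NIL and 10.2 and 10.9 CPM in NIP, and the log2 changes were 3.41 ± 0.47 (adjusted p = 0.00918, edgeR) and 3.35 ± 0.47 (adjusted p = 0.00356). Per kilobase of exon, mean Ddit3 and Atf4 levels with CPA at 12 h in NIP were 153 and 166 CPM, while at 0 h they were 13.0 and 74.9.

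Atf3 (chr1:191170296-191218039, minus strand) encodes an early stress-induced factor of the same zipper family. In NIP at 12 h it was at 7.16 and 12.4 CPM untreated and 164 and 172 CPM with CPA, and in NIL at 4.86 and 7.43 untreated and 57.9 and 47.5 with CPA. At 36 h it was at 21.3 and 19.5 untreated and 33.0 and 49.2 with CPA in NIP, and at 6.77 and 7.10 untreated and 25.4 and 45.2 with CPA in NIL. The 12 h treated NIP libraries were the highest of all 20 for this gene, and by 36 h the treated NIP range overlapped that of NIL. At 12 h the log2 change was 4.11 ± 0.37 in NIP (adjusted p = 9.6e-05, edgeR) and 3.13 ± 0.36 in NIL (adjusted p = 0.000554). At 36 h it was 2.34 ± 0.35 in NIL (adjusted p = 0.0159). In NIP at 36 h it was 1.01 ± 0.33 and did not pass (adjusted p = 0.162), but passed with the replicate block (adjusted p = 0.0174, edgeR).

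Atf5 (chr7:44812256-44816658, minus strand) encodes a factor whose translation is controlled in a way like that of ATF4. Its exons share 82 bases (4.11%) with other genes. In NIL it went from 18.9 and 34.6 to 180.3 and 202 CPM at 12 h and from 20.2 and 33.9 to 199 and 269 CPM at 36 h. NIP libraries were at 42.2 and 95.5 untreated and 152 and 206 with CPA at 12 h, and at 42.8 and 51.4 untreated and 215 and 267 with CPA at 36 h. The treated ranges of the lines overlapped at both times, and the untreated libraries did not at any time. The log2 change in NIL was 2.85 ± 0.40 at 12 h and 3.12 ± 0.41 at 36 h (edgeR adjusted p = 0.00236 and 0.00918). NIP had 1.38 ± 0.38 at 12 h, which did not pass (adjusted p = 0.0575, or 0.000194 with the replicate block), and 2.35 ± 0.39 at 36 h, which did (adjusted p = 0.0071).

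Trib3 and Ppp1r15a act as brakes on the branch. Trib3 (chr2:152337422-152344032, minus strand) encodes a pseudokinase that binds ATF4 and CHOP and damps them. It was at 1.29 and 3.48 CPM in untreated NIL at 12 h against 70.1 and 82.3 CPM with CPA, and at 1.27 and 2.92 against 34.6 and 110.3 CPM at 36 h. In NIP it was at 2.00 and 9.24 against 56.3 and 67.8 CPM at 12 h and at 1.79 and 2.52 against 37.4 and 69.9 CPM at 36 h. Replicate 2 was above replicate 1 in 9 of the 10 groups. At 12 h in NIL the log2 change was 5.14 ± 0.81 (adjusted p = 0.00459, edgeR), the largest after Chac1 among the 8 genes that passed there. At 36 h in NIL Trib3 changed by 5.20 ± 0.81, and in NIP it was 3.48 ± 0.72 and 4.59 ± 0.79 at the 12 h and 36 h times. Their adjusted p-values were 0.0171, 0.015 and 0.00844 (edgeR). Without NIP 12 h untreated replicate 2, the change in NIP at 12 h was 4.95, and without replicate 1 it was 2.75 and did not pass (adjusted p = 0.139).

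Ppp1r15a (chr7:45522916-45526268, minus strand) encodes GADD34, the subunit that brings protein phosphatase 1 to eIF2 and restores translation. In NIP at 12 h it was at 31.6 and 36.2 CPM untreated and 439.8 and 439 CPM with CPA. In NIL at 12 h it was at 25.9 and 33.1 untreated and 212 and 204 with CPA. The 2 treated libraries of each line were nearly equal at 12 h, and those of NIP were the highest for this gene. At 36 h it was at 27.9 and 46.0 untreated and 84.5 and 158 with CPA in NIL, and at 28.1 and 35.7 untreated and 141 and 206 with CPA in NIP. The log2 changes at 12 h were 2.82 ± 0.33 in NIL and 3.70 ± 0.34 in NIP (edgeR adjusted p = 0.000554 and 9.76e-05). At 36 h they were 1.72 ± 0.32 and 2.44 ± 0.32 (edgeR adjusted p = 0.0334 and 0.00356).

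Among the effectors, Chac1 (chr2:119351229-119354381, plus strand) encodes an enzyme that breaks down glutathione. It was at 1.15 and 3.13 CPM in untreated NIL at 12 h and at 74.2 and 71.1 CPM with CPA, and at 1.19 and 3.50 untreated and 32.7 and 55.2 with CPA at 36 h. The NIP libraries were at 1.94 and 17.8 untreated and 93.5 and 97.9 with CPA at 12 h and at 4.05 and 3.30 untreated and 75.6 and 76.2 with CPA at 36 h. The untreated NIP libraries at 12 h stood far apart from each other, while the treated ones nearly coincided at both times. The log2 changes were 5.24 ± 0.87 and 4.34 ± 0.84 in NIL (edgeR adjusted p = 0.00622 and 0.0406). In NIP they were 3.29 ± 0.76 and 4.38 ± 0.82 (edgeR adjusted p = 0.025 and 0.015). Without NIP 12 h untreated replicate 2 the 12 h change in NIP was 5.62, and without replicate 1 it was 2.42.

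Nupr1 (chr7:126623249-126630861, minus strand) encodes a small stress-induced chromatin protein and was the gene with the fewest reads. It was at 0 to 0.46 CPM in the 12 untreated libraries. With CPA it was at 2.60 and 8.64 CPM in NIL at 12 h and 8.63 and 42.8 at 36 h, and at 0.960 and 3.57 in NIP at 12 h and 1.06 and 9.43 at 36 h. Every treated library was above every untreated one, and replicate 2 was above replicate 1 in all 4 treated groups. Summed over a group's libraries, 201 reads with CPA stood against 4 untreated in NIL at 12 h, a ratio of 47.9 after scaling to library size (exact 95% interval 18.4 to 178, counting error only). At 36 h in NIL 469 reads stood against 1 (ratio 755, interval 135 to 29882). In NIP it was 165 against 5 at 36 h (ratio 25.9, interval 10.9 to 80.8) and 105 against 0 at 12 h. Set against a floor of 3 counts over the untreated group, the latter is a pooled ratio of 40.7. Of those 105 reads replicate 1 gave 20 and replicate 2 gave 85. The pooled ratios leave out this spread between libraries, so 40.7 is not a lower bound for each library.

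By edgeR, Nupr1 passed only in NIL at 36 h (adjusted p = 0.0439). Its adjusted p in the other 3 was 0.124 in NIL at 12 h, 0.0546 in NIP at 12 h and 0.138 in NIP at 36 h. It passed in all 4 with the replicate block, with adjusted p = 0.000141, 0.00011 and 0.000259 in those 3.

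Sesn2 (chr4:132492032-132510501, minus strand) encodes sestrin 2, a leucine sensor that restrains the growth kinase mTORC1. In NIL it was at 91.8 and 119 CPM untreated and 307 and 315 with CPA at 12 h, and at 86.0 and 149 untreated and 217 and 292 with CPA at 36 h. NIP libraries were at 43.2 and 68.9 untreated and 185 and 191 with CPA at 12 h and at 39.4 and 54.2 untreated and 125 and 200.1 with CPA at 36 h. NIL libraries were above NIP libraries at 12 h and 36 h, both with and without CPA. Sesn2 rose in NIL at 12 h (1.56 ± 0.32, adjusted p = 0.0216, edgeR). It rose in NIP by 1.75 ± 0.32 at 12 h and 1.79 ± 0.33 at 36 h (adjusted p = 0.0084 and 0.0119). In NIL at 36 h the change of 1.11 ± 0.32 did not pass (adjusted p = 0.111, or 0.00133 with the replicate block).

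Ddit4 (chr10:59949669-59951834, minus strand) encodes REDD1, another inhibitor of mTORC1, which also answers to hypoxia and glucocorticoids. In NIL at 12 h it was at 51.0 and 64.1 CPM untreated and 67.1 and 59.3 CPM with CPA, and at 36 h at 50.3 and 56.8 untreated and 49.9 and 67.0 with CPA. In NIP it was at 20.3 and 33.0 untreated and 65.7 and 71.8 with CPA at 12 h and at 22.2 and 28.3 untreated and 48.8 and 76.0 with CPA at 36 h. Treated NIP reached the range of NIL, where treated and untreated libraries overlapped. The log2 changes in NIL were 0.14 ± 0.29 at 12 h and 0.12 ± 0.29 at 36 h (edgeR adjusted p = 0.931 and 0.838). In NIP Ddit4 rose by 1.37 ± 0.29 and 1.30 ± 0.29 (edgeR adjusted p = 0.0174 and 0.0361).

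**Figure D2:**
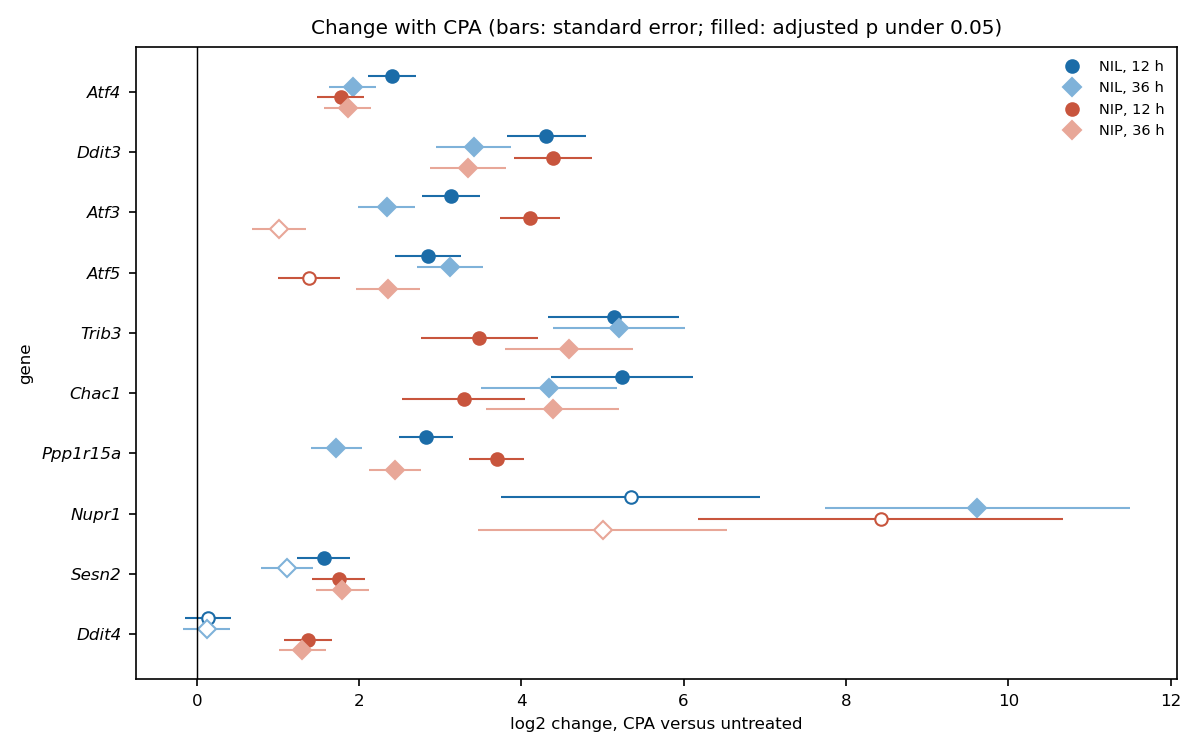
Log2 change with CPA for each gene in NIL (blue) and NIP (red) at 12 h (circles) and 36 h (diamonds), with bars for the standard error and filled symbols for an edgeR adjusted p under 0.05. Ddit4 lies near 0 in NIL and at 1.37 and 1.30 in NIP, and Atf3 in NIP lies at 4.11 at 12 h and 1.01 at 36 h.

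Whether the lines responded differently was tested as the change with CPA in NIP minus that in NIL. None of the 10 genes passed at 12 h or 36 h by edgeR, by edgeR with the replicate block or by DESeq2, and 2 at each time had an unadjusted p under 0.05. Over all genes 0% passed at 12 h and 0% at 36 h by edgeR, 0% and 0.128% with the replicate block, and 0.0541% and 0.135% by DESeq2. For Ddit4 the difference was 1.23 ± 0.41 at 12 h (unadjusted 95% interval 0.35 to 2.11, adjusted p = 1) and 1.18 ± 0.41 at 36 h (interval 0.29 to 2.06, adjusted p = 0.887). Its replicate-block edgeR adjusted p was 0.131 and 0.101. Ddit4 therefore passed in NIP and not in NIL, while the difference between the lines did not pass.

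For Atf5 the response in NIP minus that in NIL was -1.47 ± 0.53 at 12 h (interval -2.62 to -0.32). For Atf3 it was 0.97 ± 0.47 at 12 h (interval -0.05 to 1.99) and -1.33 ± 0.47 at 36 h (interval -2.35 to -0.31). For Atf4 it was -0.63 ± 0.40 (interval -1.48 to 0.23) and -0.06 ± 0.40 (interval -0.92 to 0.80), and for Ddit3 0.09 ± 0.61 (-1.22 to 1.39) and -0.06 ± 0.61 (-1.38 to 1.25). Without NIP 12 h untreated replicate 2 the Atf5 value at 12 h was -0.76 ± 0.49, and without NIL 12 h untreated replicate 2 it was -1.96 ± 0.58. The Ddit3 values lay near 0, with intervals that reach past 1 log2 unit on both sides. Without that NIP library the 12 h value was 0.04 for Atf4 and 0.39 for Chac1, where with it the Chac1 value was -1.95 ± 1.06.

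Between the times, the change with CPA at 36 h was set against that at 12 h. In NIL none of the 10 genes passed by edgeR, with the replicate block or by DESeq2, and 1 had an unadjusted p under 0.05. Of all genes 0.00676% passed in either direction by edgeR, 0.108% with the replicate block and 0.0744% by DESeq2. In NIP none passed by edgeR, 2 had an unadjusted p under 0.05, and 0.00676% of all genes passed with a smaller change at 36 h. There Atf3 had a difference of -3.10 ± 0.47 (adjusted p = 0.0796, edgeR), the log2 change being 4.11 at 12 h and 1.01 at 36 h. Atf3 passed under the replicate block, alone of the 10 (-3.16 ± 0.35, adjusted p = 0.000652, edgeR), when 0.541% of all genes passed in that direction. DESeq2 also called it alone, with 0.297% of all genes. The value of Nupr1, which rests on almost no untreated reads, was -3.42 ± 3.20.

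The Atf3 values per library show both sides of this difference. Treated NIP was at 164 and 172 CPM at 12 h and at 33.0 and 49.2 CPM at 36 h, and untreated NIP was at 7.16 and 12.4 CPM at 12 h and 21.3 and 19.5 CPM at 36 h. In NIL the corresponding difference was -0.79 ± 0.48. Ppp1r15a had the same sign in both lines, -1.11 ± 0.44 in NIL and -1.26 ± 0.44 in NIP (edgeR adjusted p = 0.97 and 0.61). Ddit3 was at -0.90 ± 0.61 and -1.05 ± 0.61, while Atf5 was at 0.27 ± 0.54 and 0.97 ± 0.53. For Trib3 and Chac1 in NIP the differences were 1.11 ± 0.98 and 1.10 ± 1.02, which were -0.36 and -1.24 without untreated 12 h replicate 2.

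**Figure D3:**
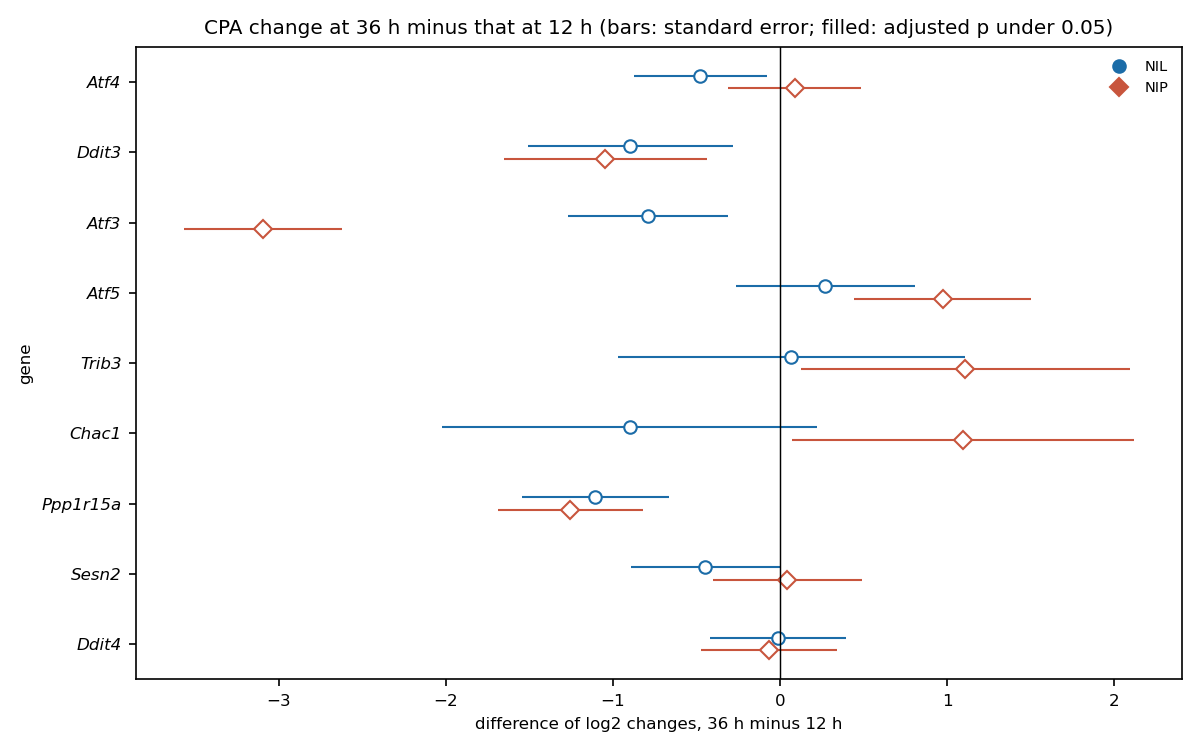
Change with CPA at 36 h minus that at 12 h (difference of log2 changes) for 9 genes in NIL (blue circles) and NIP (red diamonds), with bars for the standard error. Nupr1 is left out because its untreated libraries hold almost no reads. Every symbol is open because none passed in the main edgeR fit, and Atf3 in NIP lies farthest from 0 at -3.10.

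Untreated NIP and NIL differed at 0 h. Atf4, Atf5, Trib3 and Chac1 were higher in NIP and Ddit4 was lower, so 4 of 10 were called higher (7.86% of all genes) and 1 lower (4.61%). Atf5 was at 22.8 and 32.0 CPM in NIL and 114 and 132 CPM in NIP (27.4 ± 6.50 and 123 ± 12.1, mean ± SD, n = 2). Chac1 was at 1.72 and 3.64 in NIL and 27.8 and 25.5 in NIP (2.68 ± 1.36 and 26.7 ± 1.62, mean ± SD, n = 2), and Trib3 was at 1.40 and 2.88 in NIL and 15.0 and 12.1 in NIP. Atf4 was at 78.2 and 85.8 CPM in NIL and 182 and 171 CPM in NIP. In each of these 4 genes both NIP libraries were above both NIL libraries.

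By edgeR the log2 difference at 0 h was 2.17 ± 0.39 for Atf5 (adjusted p = 0.00227) and 3.38 ± 0.80 for Chac1 (adjusted p = 0.0129). It was 2.74 ± 0.75 for Trib3 (adjusted p = 0.0289) and 1.11 ± 0.28 for Atf4 (adjusted p = 0.0205, edgeR). Ddit4, at 65.0 and 79.9 CPM in NIL and 26.9 and 43.3 in NIP, had a difference of -1.05 ± 0.29 (adjusted p = 0.0308, edgeR). With the replicate block 6 were higher (14.3% of all genes), adding Ddit3 (1.23, adjusted p = 0.0126 against 0.115 without it) and Ppp1r15a (0.65, adjusted p = 0.0416 against 0.251). The number called in either direction was 1 without NIL replicate 1 or NIP replicate 1, 2 without NIL replicate 2 and 3 without NIP replicate 2, and Atf5 passed in each of these fits.

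The 0 h levels of Atf3 were 11.1 and 12.2 CPM in NIL and 12.6 and 20.7 CPM in NIP, and those of Ddit3 were 7.90 and 12.4 in NIL and 26.0 and 18.6 in NIP. Ppp1r15a was at 32.0 and 45.4 in NIL and 64.5 and 52.9 CPM in NIP, Sesn2 at 96.6 and 139 in NIL and 85.7 and 95.1 in NIP, and Nupr1 at 0.0637 and 0.169 in NIL and 0.0543 and 0 in NIP. Atf3, Ddit3 and Ppp1r15a were higher in both NIP libraries than in both NIL libraries, and Sesn2 and Nupr1 were lower in both. None of these 5 passed without the replicate block.

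The untreated lines were compared at the later times as well. At 12 h Atf5 was higher (1.38 ± 0.39, adjusted p = 0.0331, edgeR) and Ddit4 lower (-1.11 ± 0.29, adjusted p = 0.0239) in NIP, which is 1 of 10 in each direction against 7.68% and 4.28% of all genes. Without NIP 12 h untreated replicate 2 the Atf5 difference was 0.67 and did not pass (adjusted p = 0.366), and Trib3 was at -0.11 in place of 1.36. With any 1 library left out, fewer of all genes were called, and the Ddit4 difference lay between -1.50 and -0.80. With the replicate block 2 were higher (14.5% of all genes) and 2 lower (13.5%), adding Atf4 (adjusted p = 0.0267 against 0.0717) and Sesn2 (-0.93, adjusted p = 0.00101 against 0.0869).

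At 36 h untreated, Atf3 was higher in NIP (21.3 and 19.5 against 6.77 and 7.10 CPM, log2 difference 1.56 ± 0.35, adjusted p = 0.00966, edgeR). That is 1 of 10, against 7% of all genes. Sesn2 (-1.32 ± 0.32, adjusted p = 0.0167, edgeR) and Ddit4 (-1.08 ± 0.29, adjusted p = 0.0287) were lower, 2 of 10 against 4.56%. Atf5 also passed under the replicate block (0.84, adjusted p = 0.00619 against 0.198), making 2 higher against 14.1% of all genes. Ddit4 was lower in both NIP libraries than in both NIL libraries at all 3 untreated times. The number called at 36 h was 0 without NIP replicate 1, which is a high-Rn45s library, or without NIL replicate 2, and 1 without NIL replicate 1 or without both high-Rn45s libraries.

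**Figure D4:**
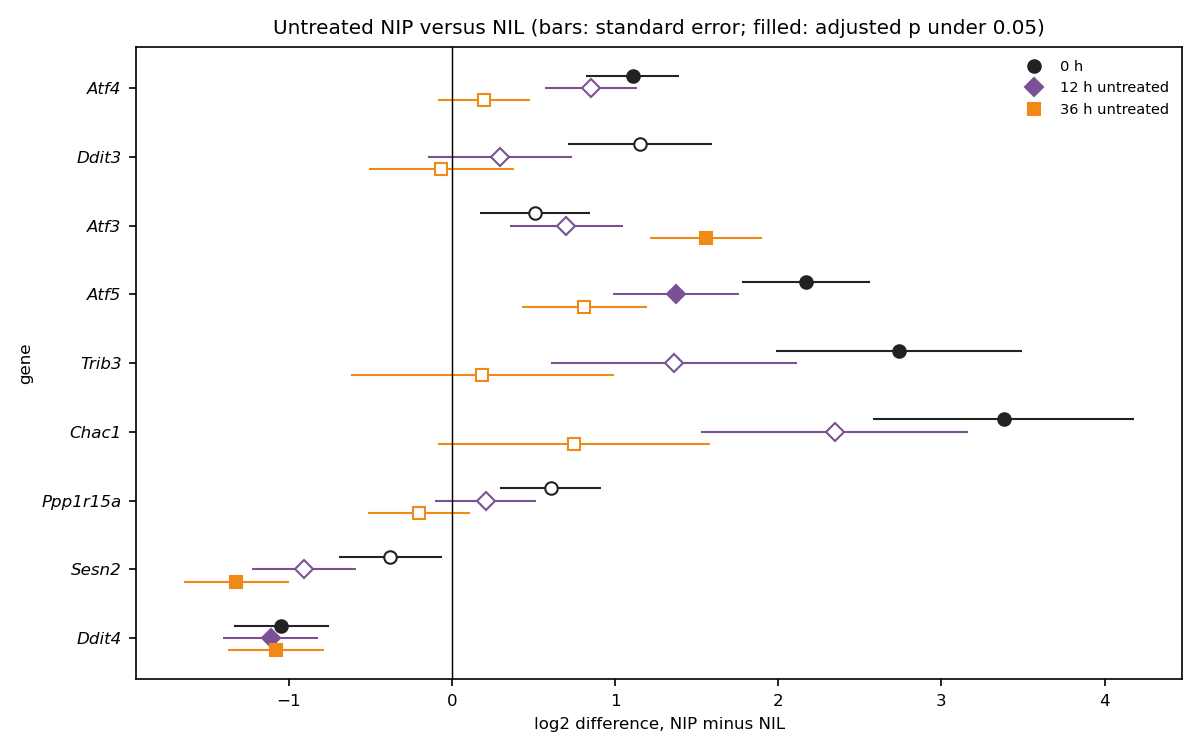
Log2 difference between untreated NIP and NIL at 0 h (black circles), 12 h (purple diamonds) and 36 h (orange squares) for 9 genes, with bars for the standard error and filled symbols for an edgeR adjusted p under 0.05. Atf4, Atf5, Trib3 and Chac1 lie to the right at 0 h and nearer 0 at 36 h, Ddit4 stays near -1 at all times and Atf3 lies farthest right at 36 h. Nupr1 is left out because its untreated libraries hold almost no reads.

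The untreated levels of NIP were lower at 36 h than at 0 h for most of the genes, with a result that depended on the model. Chac1 was at 27.8 and 25.5 CPM at 0 h and 4.05 and 3.30 CPM at 36 h, Trib3 at 15.0 and 12.1 at 0 h and 1.79 and 2.52 at 36 h, Atf5 at 114 and 132 at 0 h and 42.8 and 51.4 at 36 h, and Atf4 at 182 and 171 at 0 h and 78.5 and 72.5 at 36 h. For each of these 4 genes both 36 h libraries were below both 0 h libraries, and at 12 h replicate 1 was near the 36 h level and replicate 2 nearer to that of 0 h. By edgeR none of the 10 passed (0.602% of all genes were lower), 7 had an unadjusted p under 0.05, and DESeq2 called 4, Atf4, Atf5, Trib3 and Chac1 (1.97% of all genes were lower). Under the replicate block 7 were lower (4.4% of all genes).

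Those 7, with their blocked log2 values, were Atf4 (-1.23), Ddit3 (-1.16), Atf5 (-1.40), Trib3 (-2.84), Chac1 (-2.99), Ppp1r15a (-0.92) and Sesn2 (-0.97). Their adjusted p-values ran from 0.001 for Atf5 to 0.0467 for Ddit3 (edgeR with the replicate block). Atf3 had the opposite sign (0.33, adjusted p = 0.447, edgeR with the replicate block). In untreated NIL between 0 h and 36 h none of the 10 passed by edgeR, with the replicate block or by DESeq2, and 1 had an unadjusted p under 0.05. Of all genes 0.027% passed in either direction by edgeR, 0.94% with the replicate block and 0.656% by DESeq2. This comparison and the line comparison share the 0 h and 36 h libraries, so their values are not separate evidence.

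Levels also followed the replicate number. Averaged over groups, replicate 2 was above replicate 1 by 2.24 ± 0.28 (log2 ± SE) for Nupr1 (adjusted p = 1.93e-05, edgeR with the replicate block). It was higher by 0.85 for Trib3, 0.51 for Atf5, 0.47 for Ddit3, 0.41 for Sesn2, 0.35 for Ddit4, 0.33 for Atf3 and 0.32 for Ppp1r15a, all of which passed. Chac1 (0.60, adjusted p = 0.143, edgeR) and Atf4 (0.04, adjusted p = 0.785) did not pass. The summed CPM of 8 pluripotent stem cell markers was 20.2 to 29.1 in the NIL replicate 1 libraries and 123 to 275 in replicate 2, with 5.36 to 9.93 and 12.0 to 23.2 in NIP. The summed CPM of 10 endoderm and endothelium markers was 1802 to 9294 and 6635 to 20590 in NIL, and 219.8 to 567 and 1681 to 5056 in NIP. In NIL the endoderm and endothelium sum at 36 h was 3212 and 11329 untreated and 9294 and 20590 with CPA, and at 12 h 2809 and 6635 untreated and 3306 and 10361 with CPA. In NIP it was 506 and 1681 untreated and 307 and 2042 with CPA at 12 h, and 363 and 2074 untreated and 219.8 and 5056 with CPA at 36 h, so replicate 1 was lower and replicate 2 higher with CPA. In the 4 CPA comparisons 0 of these 10 markers passed by edgeR, with the replicate block or by DESeq2, and 0 had an unadjusted p under 0.05. Their median log2 changes were 0.24 and 0.93 in NIL and -0.01 and 1.00 in NIP at 12 h and 36 h, with all 10 positive at 36 h in both lines. The part of these cells in the results was not tested.

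Neuronal RNA moved with CPA as well. The summed CPM of 15 motor neuron and neuron markers was 4531 to 7578 in untreated and 1841 to 3815 in treated NIL, and 6546 to 9422 in untreated and 4380 to 6074 in treated NIP. Of the 15, 1 fell in NIL at 12 h (0.656% of all genes) and 2 at 36 h (0.534%) by edgeR. Without both high-Rn45s libraries the NIL calls at 36 h were lost, as was every lower call there over all genes. In NIP 0 passed at 12 h (1.74%) or 36 h (0.994%), while 3 and 2 were lower at an unadjusted p under 0.05. The replicate block gave 8 and 10 lower in NIL (3.77% and 11% of all genes) and 5 and 4 in NIP (6.54% and 5.15%). DESeq2 called 4 and 5 lower in NIL, with 317 and 431 of 14792 tested genes lower. In NIP it called 2 and 1, with 482 and 382 of all genes lower. Its part in the rise of the stress genes was not tested.

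Other genes of the pathway were taken from lists that name them by role. The shares of all genes called in the same CPA comparisons, by edgeR and with the replicate block, are those given above. With 1 library of a CPA comparison left out, fewer of all genes rose by edgeR than with all libraries. The exception was NIL at 36 h without CPA replicate 1. By DESeq2, 392 and 280 of 14792 genes were higher in NIL at 12 h and 36 h, and 669 and 319 in NIP. Of the 14 genes for eIF2 kinases, eIF2 and its exchange factor eIF2B, including Ppp1r15b (the constitutive eIF2 phosphatase subunit), 1 rose at 12 h in each line. At 36 h 0 passed by edgeR in either line, with 2 higher and 1 lower in NIL and 5 and 0 in NIP at an unadjusted p under 0.05. With the replicate block 1 was higher and 1 lower in NIL, where 7.25% and 11% of all genes were. In NIP 1 was higher and 2 lower, against 5.1% and 5.15% of all genes. DESeq2 called 1 higher in NIL and none in NIP. At 12 h 0 passed in either line when any 1 library was left out. Ppp1r15b was the one in NIL (0.79 ± 0.17, adjusted p = 0.0301, edgeR). Eif2ak3, the gene for PERK, was the one in NIP (0.88 ± 0.20, adjusted p = 0.0265, edgeR), and its value in NIL at 12 h was 0.78 ± 0.21 (adjusted p = 0.0714). The median log2 changes of this list were 0.08, 0.15, 0.03 and 0.07 in NIL at 12 h and 36 h and in NIP at 12 h and 36 h.

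Of 15 basic leucine zipper partners of ATF4 and CHOP, 2 rose in NIL at 12 h, 3 in NIP at 12 h and 1 in NIP at 36 h. In NIL at 36 h 0 passed by edgeR, 6 were higher at an unadjusted p under 0.05, 6 with the replicate block and 3 by DESeq2. In NIP at 36 h 3 were higher and 1 lower with the replicate block, and 2 higher and 1 lower by DESeq2. Without both high-Rn45s libraries 0 passed at 36 h in either line and 0 in NIL at 12 h, and leaving out 1 library gave 0 in NIL and 0 to 1 in NIP at 12 h, and 0 to 2 in NIL and 0 in NIP at 36 h. The list's medians were 0.58 and 0.40 in NIL at 12 h and 36 h and 0.52 and 0.70 in NIP. Cebpb, a C/EBP partner, rose by 2.84 ± 0.67 in NIL at 12 h, 3.11 ± 0.66 in NIP at 12 h and 2.88 ± 0.67 in NIP at 36 h, with adjusted p-values of 0.0441, 0.0169 and 0.0421 (edgeR), and did not pass in NIL at 36 h (adjusted p = 0.106). Cebpg, a C/EBP that pairs with ATF4 on amino acid genes, rose at 12 h in NIL (1.35 ± 0.31, adjusted p = 0.0388, edgeR) and in NIP (1.17 ± 0.31, adjusted p = 0.0483).

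Of 23 tested other targets of ATF4 and CHOP (Fgf21 was not tested for lack of reads), 14 rose in NIL at 12 h, 5 in NIL at 36 h, 11 in NIP at 12 h and 15 in NIP at 36 h, with medians of 2.26, 1.74, 1.27 and 2.52. The counts were 17, 18, 17 and 20 in the same order with the replicate block. Without both high-Rn45s libraries 0 passed at 36 h in either line, with medians of 1.58 and 2.09. Leaving out 1 library gave 4 to 10 in NIL at 12 h, fewest without untreated replicate 1, and 2 to 9 in NIP at 12 h, fewest without CPA replicate 1. At 36 h it gave 0 to 6 in NIL, with 0 without either untreated library or CPA replicate 2, and 0 to 12 in NIP, with 0 without untreated replicate 1. The glycine transporter gene Slc6a9 rose in all 4, by 4.84 ± 0.51 and 3.06 ± 0.47 in NIL and by 3.37 ± 0.46 and 3.99 ± 0.50 in NIP (edgeR adjusted p = 0.000334, 0.0159, 0.00152 and 0.00356). Slc7a5, a neutral amino acid transporter gene, changed by 2.87 ± 0.33 and 1.93 ± 0.31 in NIL and by 1.20 ± 0.31 and 2.54 ± 0.32 in NIP, and its 4 adjusted p-values were 0.000554, 0.0222, 0.0426 and 0.00356 (edgeR). Asns, for asparagine synthetase, changed by 1.77 ± 0.26 in NIL (adjusted p = 0.00293, edgeR) and by 0.65 ± 0.25 in NIP at 12 h (adjusted p = 0.188).

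These targets also differed between untreated lines at 0 h, where 14 of 23 were higher in NIP and 2 lower, with a median of 1.82. Of all genes 7.86% were higher there and 4.61% lower. Leaving out 1 library gave 7 to 10 higher, fewest without NIL replicate 1. Psat1, of serine synthesis, was higher by 2.85 ± 0.41 (adjusted p = 0.000454, edgeR), Mthfd2, of mitochondrial folate metabolism, by 2.74 ± 0.42 (adjusted p = 0.000657) and Asns by 1.82 ± 0.26 (adjusted p = 0.000365). At 12 h 8 were higher and 1 lower (7.68% and 4.28% of all genes). With the replicate block 9 were higher and 4 lower there (14.5% and 13.5% of all genes). The list's summed CPM at 12 h untreated was 1275 and 1174 in NIL, with NIP replicate 1 close to this at 1381 and replicate 2 at 2562. At 36 h 0 passed by edgeR (median -0.18), against 7% of all genes higher and 4.56% lower. There 1 was higher and 2 lower at an unadjusted p under 0.05. The same numbers passed with the replicate block (14.1% and 14.7% of all genes). DESeq2 called 0 higher and 1 lower, with 1266 and 1087 of 14792 genes. Between 0 h and 36 h in untreated NIP 9 of 23 were lower (0.602% of all genes), among them Psat1 (-2.80 ± 0.41, adjusted p = 0.00984, edgeR) and Slc7a5 (-1.87 ± 0.31, adjusted p = 0.016). Without both high-Rn45s libraries 0 of 23 were lower (0% of all genes), and leaving out any 1 library left 0 or 1. The median without both was -1.66. The list's summed CPM was 3032 and 2903 in NIP at 0 h, 1381 and 2562 at 12 h untreated and 1028 and 1153 at 36 h untreated, so NIP 12 h untreated replicate 2 lay near the 0 h libraries for this list as it did for Atf4, Atf5, Trib3 and Chac1.

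The branches that XBP1 and ATF6 drive served as the nearest comparison. Of their 15 target genes 15 rose in NIL at 12 h, 12 in NIL at 36 h, 14 in NIP at 12 h and 12 in NIP at 36 h, with medians of 2.96, 2.04, 2.75 and 1.76. All 15 rose in each with the replicate block. Without both high-Rn45s libraries 0 passed at 36 h in either line, as for the 10 stress genes, with medians of 1.95 and 1.61. Leaving out 1 library gave 10 to 14 in NIL and 10 to 13 in NIP at 12 h. At 36 h it gave 0 to 12 in NIL, with 0 without either untreated library, and 0 to 12 in NIP, with 0 without untreated replicate 1. Hspa5, the gene for the chaperone BiP, rose by 3.18 ± 0.29 in NIL and 3.23 ± 0.29 in NIP at 12 h (adjusted p = 0.000111 and 9.6e-05, edgeR). Ddit4 and Sesn2 also answer to hypoxia and p53. Of 10 tested hypoxia targets 2 rose in NIL and 3 in NIP at 12 h, and 1 in NIP at 36 h, while in NIL at 36 h 0 passed by edgeR (2 higher and 1 lower at an unadjusted p under 0.05, 2 and 1 with the replicate block, 1 and 1 by DESeq2). Without both high-Rn45s libraries 1 passed in NIL and 2 in NIP at 12 h and 0 at 36 h, and leaving out 1 library gave 0 to 1 in NIP at 12 h and 0 in the other 3. The medians of this list were 0.05, 0.12, 0.03 and 0.05. Of 12 p53 targets 0 passed in any of the 4 comparisons by edgeR, with medians of -0.11, 0.10, 0.21 and 0.53. At an unadjusted p under 0.05 0, 1, 1 and 8 of them were higher, with the replicate block 0, 3, 3 and 6, and by DESeq2 0, 0, 1 and 0, in the order NIL at 12 h and 36 h, NIP at 12 h and 36 h. At 0 h 4 of the 15 XBP1 and ATF6 targets were higher in NIP (7.86% of all genes), with a median of 0.30. Their summed CPM at 0 h was 1756 and 2332 in NIL and 3363 and 2204 in NIP, so it was higher in NIP for replicate 1 only.

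Across the 20 libraries the genes followed each other to different degrees. Pearson's r of log2 CPM was 0.586 to 0.977 with a median of 0.854 for the 36 pairs without Ddit4, and 0.217 to 0.811 with a median of 0.416 for the 9 pairs with Ddit4. Ddit3 lay closest to the mean of the 10 genes (r = 0.987) and Ddit4 farthest from it (0.568). Each of the 10 genes enters that mean, which raises its own r, and the 5 other genes named below do not. The libraries share treatment, line and replicate set, so these values describe the pattern and carry no test. The 5 other genes with the highest r with the mean of the 10 were Cdk2ap2 (0.975), Cebpb (0.972), Herpud1 (0.971), Rhbdd1 (0.971) and Akna (0.964), among which Herpud1 acts in degradation of proteins from the endoplasmic reticulum.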

How the data were processed

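Total RNA from 20 libraries was depleted of ribosomal RNA and sequenced, per the labels' protocols. The deposited files hold whole read counts per gene for 24421 symbols. HTSeq 0.6.1p1, Picard, Bowtie2 2.3.2 and TopHat2 2.1.1 are listed, with GRCm38 (mm10), per the submitters' processing notes. The strand setting and annotation release are not given in the sources used here, so reads of overlapping genes on opposite strands may be pooled. The 5 summary lines were left out of library sizes: reads outside genes were 7.77% to 18.7%, ambiguous reads 0.156% to 0.458% and reads with several alignments 18.2% to 52.6% as a share of the lines. Gene reads per library had a median of 19.8 M, and replicate 1 libraries were deeper (median 22.6 M) than replicate 2 libraries (13.1 M).

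Genes were filtered with filterByExpr in edgeR 4.0.16 (R 4.3.3, limma 3.58.1), which kept 14792, with all 10 members among them, and libraries were scaled by TMM. A single quasi-likelihood model with a mean per group over all 20 libraries (10 residual degrees of freedom, biological coefficient of variation 27.5%) gave 13 comparisons, adjusted by Benjamini-Hochberg over all tested genes. CPM are reads per 1000000 gene reads after TMM scaling. Values after ± are standard errors for log2 changes and SD for levels. These standard errors were derived from the test, as the absolute log2 change divided by the square root of F. Intervals of log2 differences were built from them with the test's total degrees of freedom.

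The main fit had no term for the replicate number. Replicate numbers were used as pairs only in the alternative fit with the replicate block, after a check on the data. Over 45 pairs of groups, same-numbered libraries deviated together with r from 0.243 to 0.763 (median 0.467). The fit with the replicate number as a block had 9 residual degrees of freedom and a coefficient of variation of 15.7%. The fit was tested on simulated data with the libraries' own depths, for CPA against untreated NIL at 12 h. Among 14792 genes, 8 of 50 genes changed 2-fold, 45 of 50 changed 4-fold and all 50 changed 8-fold were recovered, with 6 false calls. The changed genes had more than 50 expected reads per library, all genes had the same coefficient of variation, and no replicate effect was simulated. The recovery therefore does not cover genes with fewer reads, such as Nupr1, Trib3 and Chac1. In untreated NIL at 12 h Trib3 had 38 and 30 reads and Chac1 had 34 and 27.

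Alternatives were the block, DESeq2 1.42.0, RLE factors, no filter, Rn45s left out, both high-Rn45s libraries left out, 1 line only, and each library left out in turn. The members and the gene lists were chosen with earlier results of these data known. Genes named beside the members were, per list and comparison, up to 4 with the smallest p-values, any eIF2 kinase gene, and the 5 most correlated with the members' mean; the other values printed for a named gene, and Lhx3, were chosen after their values were seen.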

Additional observations from a re-analysis of the deposited data

Results flagged for a closer look

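The change of Atf3 with CPA differed between 36 h and 12 h in NIP in a test of the difference itself. With the replicate block the value was -3.16 on the log2 scale (adjusted p = 0.000652, edgeR), and without the block it was -3.10 ± 0.47 (adjusted p = 0.0796). The difference was -3.87 over the replicate 1 libraries and -2.45 over those of replicate 2. Leaving out 1 library at a time without the block gave values from -3.54 to -2.75, none of which passed. Groups of 2 libraries cannot be tested for single outlying samples.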

How the results depend on the processing

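The counts of called genes for the 4 CPA comparisons were 8 each, and with the replicate block, DESeq2, RLE factors, no filter or Rn45s left out they stayed within 1.5 times of that. In NIL at 36 h the count was 1 when only NIL libraries were fitted and 0 without both high-Rn45s libraries. In NIP at 36 h it was 0 without both. For the Atf3 time difference in NIP (0 called) the replicate block, DESeq2 and no filter each called 1. Between untreated lines at 12 h (2 called) the paired fit with the replicate block called 4, DESeq2 5 and the fit without both high-Rn45s libraries 1, and at 36 h (3 called) the last called 1. For untreated NIP between 0 h and 36 h (0 called) the block called 7, DESeq2 4 and no filter 1. The cause of these differences was not tested, and some of these fits also held fewer libraries. Between untreated lines at 0 h (5 called) the block called 7, adding Ddit3 and Ppp1r15a. At 36 h (3 called) it called 4, adding Atf5. Beyond these and the calls already given, the block changed no other call of the 10 genes. Leaving out 1 library at a time, which assumes that the lone library varies like the others, gave 5 to 7 genes for CPA in NIL at 12 h, 0 to 8 in NIL at 36 h, 4 to 9 in NIP at 12 h and 0 to 8 in NIP at 36 h. For NIP against NIL it gave 1 to 3 at 0 h, 1 to 3 at 12 h and 0 to 2 at 36 h, and 0 to 0 for the other 6 comparisons. Of 1540 single values recomputed, 68 changed sign within 1 SE of 0 without passing in either setting and are not counted as reversals, and 7 others changed sign, all when 1 library was left out and none past the threshold. The leave-one-out ranges of those 7 were -1.08 to 0.0389 for Atf4 and -2.81 to 0.39 for Chac1 in NIP minus NIL at 12 h, -0.36 to 1.84 for Trib3, -1.24 to 1.96 for Chac1 and -5.73 to 1.16 for Nupr1 in 36 h minus 12 h in NIP, -0.14 to 6.56 for Nupr1 in 36 h minus 12 h in NIL, and -0.11 to 2.099 for Trib3 between untreated lines at 12 h. That of Nupr1 between untreated lines at 12 h ran from -6.13 to 0. Values of Nupr1 depend on a few untreated reads.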
